A study of Rattus norvegicus with 28 samples.

Results

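Wild-type (wt) rats with a nerve crush were compared with naive wt rats by RNA sequencing of the striatum, 6 wt crush libraries against 8 wt naive libraries, of 28 libraries in the series. The members were the libraries whose names in the deposited table carry both the wt genotype and the crush or naive label. The wt crush rats had their right sciatic nerve crushed for 30 seconds, and the wt naive rats carry no injury label. All were male, and the labels give 12 weeks after injury for every library, the naive ones included. The other 14 libraries came from TG rats, labelled ΔETorA, a model of DYT-TOR1A dystonia that carries the human disease allele of TOR1A, as 6 TG crush and 8 TG naive libraries, and they enter only where the response to crush was compared between genotypes. The rats lived on a daily light-dark cycle. The labels do not say which side of the brain was taken, at what hour or at what age, and they name no separate animals, which means that the p-values rest on the variation among libraries, part of which may be technical.

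The striatum is the input nucleus of the basal ganglia, and most of its neurons are GABAergic spiny projection neurons of the direct and the indirect pathway. The sciatic nerve lies outside the brain, so a change in the striatum after its crush is one at a distance from the lesion. Several genes below belong to the circadian clock, a feedback loop in which CLOCK and BMAL1 drive transcription of their own repressors through E-box sequences, while the REV-ERB repressors, of which Nr1d2 encodes one, hold Bmal1 transcription down. Output factors such as DBP carry the rhythm to other genes.

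Each wt library held 31907472 to 37291207 reads assigned to genes. Levels are given as RPM, assigned reads scaled to a total of 1000000 per library, which are comparable between libraries for one gene but not between genes. A count of 0 allows up to 0.0804 to 0.0940 RPM, depending on the library and for counting error only. The human TOR1A transcript reached at most 0.447 RPM in wt crush and 0.972 RPM in wt naive libraries, against at least 102 RPM in the TG libraries, so the genotypes followed the labels. Rat Tor1a stood at 20.4 to 23.7 RPM in wt crush libraries, against 21.00 to 23.7 RPM in wt naive libraries (log2 change -0.03, SE 0.04, adjusted p = 0.708, limma).

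Some wt naive libraries stood apart from the others. Replicates 197, 199 and 201 had the lowest level of 14 spiny projection neuron markers, with a mean log2 (RPM + 0.5) under 8.5, where the other 5 naive libraries lay between 8.75 and 9.12. Replicates 197, 199 and 202 had over 20 RPM of Slc17a7, the vesicular glutamate transporter of cortical neurons. No wt crush library had either feature. Results are therefore given also without these libraries where a call or a value turns on them.

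In wt rats with nerve crush, 18 genes rose and 35 genes fell in the striatum, among 16333 genes with at least 1 RPM in 6 or more of the 14 libraries (limma, adjusted p under 0.05). These are 0.324% of the genes tested, 0.11% higher and 0.214% lower. Among the increases were 6 clock genes, Ciart, Dbp, Nr1d2, Per3, Bhlhe41 and Cipc. Among the decreases were the dicarboxylate transporter gene Slc13a3, the transglutaminase gene Tgm2, the matrix protease gene Mmp14, the focal adhesion gene Parvb and the kinesin gene Kif21b. In size, 48 of the 53 genes changed less than 2-fold.

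The number of calls moved with almost any single library left out, although the directions did not in the settings run. All 53 genes called kept their sign in each of the alternatives in which they were tested. The alternatives reuse the libraries that gave the calls, so a kept sign is not independent evidence of direction. Unadjusted, 4060 genes (24.9%) had a p under 0.05. A fit chosen with the data already seen, in which the 3 naive libraries low in spiny neuron markers were left out, called 10 genes, all of them among the 53. Those 10 were LOC500476, Ciart, Dbp, Bhlhe41 and Barx2, all higher, and Tgm2, Parvb, Slc6a13, Slc13a3 and Klhdc7a, all lower. For LOC500476 this call carries no weight, because the wt naive libraries in which it was present, replicates 197 and 199, were among those left out. Leaving out wt naive replicate 196 gave 1914 calls and leaving out wt naive replicate 198 gave 173, while leaving out wt crush replicate 205 or 210 gave 10 each. Without wt naive replicate 202 the count was 53 again, and each of the other 9 libraries left out gave 11 to 28.

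Of the 53 genes, 37 had no overlap between the libraries of the 2 groups, 10 of them higher and 27 lower. Over all genes tested, 116 (0.71%) showed no overlap, 22 higher (0.135%) and 94 lower (0.576%). Of the genes called, 48 were protein coding. The per-gene length behind the deposited RPKM is the whole span with introns, and 17 of the 53 genes would not have been tested with a minimum of 0.5 RPKM.

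Clock repressors and an output factor rose. Of 28 clock genes listed, 26 were tested, 6 of them rose, 0 fell, and 20 did not pass, while 21 had a positive log2 change. The share called among all genes was 0.324%, and 6900 of the 16333 genes tested had a positive log2 change. The clock repressors had a median log2 change of 0.22 over 15 genes and the activators and output factors one of 0.21 over 11 genes, beside -0.03 over all genes tested. For the repressors the median was 0.23 without the 3 naive libraries low in spiny neuron markers and 0.25 under a covariate of the spiny neuron level, and for the activators and output factors it was 0.14 and 0.10 in the same settings. The list was drawn up with earlier results of these data known, so its direction is not independent evidence.

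Ciart, which encodes the repressor CHRONO (chromosome 2, 197987705 to 197991198, Rnor_6.0), had the largest change of the clock genes. Its lowest, median and highest levels were 12.5, 16.3 and 18.8 RPM in wt crush libraries, against 6.11, 6.70 and 10.8 RPM in wt naive libraries. Every wt crush library lay above every wt naive library, and wt naive replicates 198 and 202 came closest, at 10.8 and 10.1 RPM. Ciart averaged 16.1 ± 2.04 RPM in wt crush (SD, n = 6) and 7.59 ± 1.83 RPM in wt naive libraries (SD, n = 8), and it rose (log2 change 1.05, SE 0.13, adjusted p = 0.00416, limma). Of 30 alternatives in the processing, 29 kept the call, the exception being the test against a fold of 1.2 (adjusted p = 0.0897).

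Dbp, a clock-driven transcription factor that binds D-box sequences (chromosome 1, 101687896 to 101692845, Rnor_6.0), stood at 283, 307 and 322 RPM in wt crush libraries, against 182, 209.6 and 266 RPM in wt naive libraries (lowest, median, highest). The groups did not overlap. Dbp averaged 306 ± 13.2 RPM in wt crush (SD, n = 6) and 217 ± 28.2 RPM in wt naive libraries (SD, n = 8) and rose (log2 change 0.51, SE 0.07, adjusted p = 0.00620). Without the 3 naive libraries low in spiny neuron markers its log2 change was 0.41 (adjusted p = 0.0364). Nr1d2, which encodes the REV-ERB beta repressor (chromosome 15, 8730871 to 8757165, Rnor_6.0), stood at 103, 107 and 118 RPM in wt crush libraries, against 75.4, 86.00 and 94.6 RPM in wt naive libraries, also without overlap, and rose (log2 change 0.36, SE 0.05, adjusted p = 0.00723). Its call was lost without the 3 naive libraries (adjusted p = 0.0769), with a log2 change of 0.33.

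Bhlhe41, which encodes the repressor DEC2 (chromosome 4, 180230742 to 180235138, Rnor_6.0), stood at 141, 152 and 157 RPM in wt crush libraries, against 108, 116 and 128 RPM in wt naive libraries (lowest, median, highest). Its lowest wt crush library lay above its highest wt naive library, and it rose (log2 change 0.34, SE 0.05, adjusted p = 0.00427). Per3, a period gene (chromosome 5, 168088126 to 168123482, Rnor_6.0), stood at 37.6, 40.7 and 43.8 RPM in wt crush libraries, against 27.8, 32.5 and 37.4 RPM in wt naive libraries. The gap between its groups was narrow, since wt crush replicate 207 at 37.6 RPM came next to wt naive replicate 197 at 37.4 RPM, and it rose (log2 change 0.34, SE 0.07, adjusted p = 0.0458). Cipc, which encodes a partner of CLOCK that inhibits it (chromosome 6, 110968014 to 110990912, Rnor_6.0), stood at 89.6, 96.1 and 102 RPM in wt crush libraries, against 77.03, 81.6 and 90.2 RPM in wt naive libraries. Its groups overlapped by 1 library a side, and it rose (log2 change 0.21, SE 0.04, adjusted p = 0.0484). The calls of Per3 (adjusted p = 0.0854) and Cipc (adjusted p = 0.196) were lost without the 3 naive libraries low in spiny neuron markers.

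**Figure D1:**
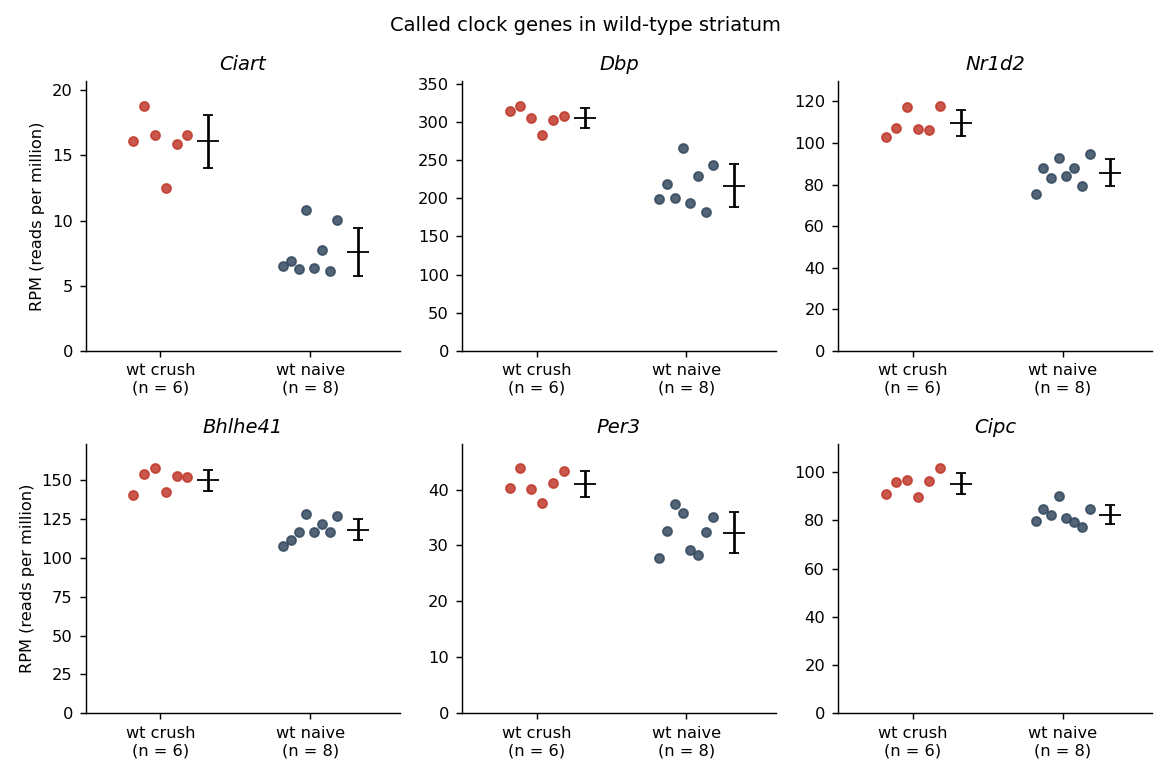
Level in RPM (assigned reads per 1000000, linear axis from 0) of the 6 clock genes called, by library (points) with the group mean and SD (bars), for wt crush (n = 6) and wt naive (n = 8). Every wt crush library lies above every wt naive library for all but Cipc.

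Several other clock genes, named after their values were seen, came close to the threshold without passing. Per2, a period gene, stood at 22.9 to 38.1 RPM in wt crush libraries, against 14.4 to 28.6 RPM in wt naive libraries (log2 change 0.60, adjusted p = 0.0568). The values were 0.42, adjusted p = 0.0558 for the period gene Per1 and 0.36, adjusted p = 0.0558 for Nr1d1, the gene of REV-ERB alpha. Cry2, a cryptochrome repressor, had one of 0.20, adjusted p = 0.0568. Of the output factors, Hlf stood at 0.47, adjusted p = 0.0612 and Tef at 0.21, adjusted p = 0.0893 in log2 change, both being PAR bZIP factors like Dbp. The deubiquitinase gene Usp2 had one of 0.36, adjusted p = 0.0701. On the activating side, Arntl, which encodes BMAL1, stood at 26.5 to 32.6 RPM in wt crush libraries, against 29.3 to 45.8 RPM in wt naive libraries (log2 change -0.25, adjusted p = 0.140), while the log2 changes of its partners Npas2 (-0.04, adjusted p = 0.770) and Clock (0.17, adjusted p = 0.120) were smaller. The 5 clock genes with a negative log2 change were Arntl, Npas2, Rorb, Nfil3 and Csnk1d, and Rorb (-0.11), Nfil3 (-0.27) and Csnk1d (-0.06) did not pass. Arntl2 lay under the minimum level.

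The clock loop acts on its repressors through E-boxes, so the promoters of the 4 clock genes of lowest p are shown, from 250 bases before to 50 bases after the gene start (RefSeq, build GRCr8). Capitals mark the E-box CACGTG, which reads the same on both strands. The windows are chr2:186112197-186112496, strand minus for Ciart, chr4:180569306-180569605, strand minus for Bhlhe41, chr1:105312006-105312305, strand plus for Dbp and chr15:9954784-9955083, strand plus for Nr1d2.
Ciart: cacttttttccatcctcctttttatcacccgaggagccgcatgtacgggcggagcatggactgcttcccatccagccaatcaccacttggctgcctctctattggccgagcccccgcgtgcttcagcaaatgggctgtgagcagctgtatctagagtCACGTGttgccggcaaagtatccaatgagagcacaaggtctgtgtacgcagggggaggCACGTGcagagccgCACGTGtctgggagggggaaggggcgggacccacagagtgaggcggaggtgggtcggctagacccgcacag
Bhlhe41: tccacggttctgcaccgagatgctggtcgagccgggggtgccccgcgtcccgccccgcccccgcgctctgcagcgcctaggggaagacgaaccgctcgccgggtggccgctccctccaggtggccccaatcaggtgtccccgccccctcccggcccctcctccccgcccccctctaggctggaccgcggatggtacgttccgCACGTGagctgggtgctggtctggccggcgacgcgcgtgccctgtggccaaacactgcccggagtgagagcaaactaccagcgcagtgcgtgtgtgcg
Dbp: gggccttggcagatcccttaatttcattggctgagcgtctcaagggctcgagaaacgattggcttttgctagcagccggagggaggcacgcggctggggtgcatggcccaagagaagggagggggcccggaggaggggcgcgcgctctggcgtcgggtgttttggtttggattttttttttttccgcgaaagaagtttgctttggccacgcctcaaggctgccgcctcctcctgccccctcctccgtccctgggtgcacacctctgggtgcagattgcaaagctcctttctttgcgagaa
Nr1d2: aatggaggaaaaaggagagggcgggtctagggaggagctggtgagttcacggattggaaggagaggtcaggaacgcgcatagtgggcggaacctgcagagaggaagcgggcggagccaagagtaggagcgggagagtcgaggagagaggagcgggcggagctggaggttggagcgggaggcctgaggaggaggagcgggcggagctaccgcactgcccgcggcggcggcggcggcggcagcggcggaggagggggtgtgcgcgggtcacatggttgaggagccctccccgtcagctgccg
The Ciart window held 3 E-boxes, which begin 93, 35 and 21 bases before the gene start, and the Bhlhe41 window held 1, which begins 48 bases before it. The Dbp and Nr1d2 windows held none of the motifs searched, which were CACGTG, the variant CACGTT with its other strand AACGTG, and the D-box TTATGNAA with its other strand TTNCATAA. The 3 motifs as written do not overlap one another in these windows. Over all 33469 promoters of the table, 6.42% held CACGTG, 4.83% held CACGTT and 3.66% held TTATGNAA. Among the 20 clock genes tested that have an entry, 5 held CACGTG in at least 1 window, and 2 of the 5 called with an entry did, namely Ciart and Bhlhe41. These matches describe letters in a window and not bound sites.

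Beside the clock, the increases included neuronal genes of synapse and signalling. Gria4, which encodes an AMPA receptor subunit (chromosome 8, 1548145 to 2045874, Rnor_6.0), stood at 83.7, 88.4 and 102 RPM in wt crush libraries, against 57.4, 67.04 and 83.9 RPM in wt naive libraries (lowest, median, highest). Its groups overlapped through wt naive replicate 196, and it rose (log2 change 0.41, SE 0.08, adjusted p = 0.0380). Pde4d, a phosphodiesterase that degrades cAMP (chromosome 2, 40219999 to 41468551, Rnor_6.0), stood at 47.5 to 60.05 RPM in wt crush libraries, against 38.3 to 47.6 RPM in wt naive libraries and rose (log2 change 0.33, SE 0.06, adjusted p = 0.0380). Slc6a15, a neuronal transporter of neutral amino acids, stood at 53.9 to 63.3 RPM in wt crush libraries, against 41.5 to 55.97 RPM in wt naive libraries and rose (log2 change 0.33, SE 0.06, adjusted p = 0.0380). Scamp1, of the secretory carrier membrane proteins, also rose (log2 change 0.29, SE 0.06, adjusted p = 0.0380). None of the 4 calls was kept without the 3 naive libraries low in spiny neuron markers, where the log2 changes were 0.32 for Gria4, 0.29 for Pde4d, 0.25 for Slc6a15 and 0.23 for Scamp1.

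Barx2, a homeobox transcription factor gene (chromosome 8, 32950878 to 33018245, Rnor_6.0), was low in the striatum and stood at 2.63, 4.79 and 5.51 RPM in wt crush libraries, against 1.15, 1.73 and 2.03 RPM in wt naive libraries (lowest, median, highest). The groups did not overlap, and within the wt crush group replicates 203 and 210 lay near 2.6 RPM while the other 4 exceeded 4.6 RPM. Barx2 rose (log2 change 1.12, SE 0.16, adjusted p = 0.00568), and 25 of 28 alternatives that tested it kept the call. Tmem260 rose by 0.33, Fgfr1op2 by 0.30 and Fam188a, the deubiquitinase gene now called Mindy3, by 0.19 on the log2 scale. LOC500300, annotated in the table as the autophagy regulator DEPP1, rose by 0.61, and the noncoding transcript LOC102552990 rose by 0.42. The last 2, and LOC500476, lie outside the rule for named genes and were chosen after their values were seen. Without the 3 naive libraries low in spiny neuron markers Barx2 kept its call, while Tmem260, Fgfr1op2, Fam188a, LOC500300 and LOC102552990 did not.

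LOC500476, a pseudogene on chromosome 5 (84571472 to 84573949, Rnor_6.0), was either present or nearly absent. It stood at 13.4, 20.7 and 26.3 RPM in wt crush libraries, against 0.0602, 0.150 and 15.4 RPM in wt naive libraries. All 6 wt crush libraries had it at 13.4 RPM or more, whereas of the wt naive libraries replicates 197 and 199 stood at 11.7 and 15.4 RPM, and the other 6 lay at or under 0.564 RPM. It was called higher (log2 change 3.80, SE 0.74, adjusted p = 0.0403). Wt naive replicates 197 and 199 belong to the sets low in spiny neuron markers and high in Slc17a7. Calls of LOC500476 without those sets therefore carry no weight. In TG rats 1 of 6 crush libraries and 5 of 8 naive libraries held more than 10 RPM. Reads of a pseudogene may come from a related gene, and which copy gave them was not tested.

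Slc13a3, a sodium-coupled transporter of dicarboxylates (chromosome 3, 162084336 to 162147398, Rnor_6.0), stood at 19.6, 20.9 and 37.3 RPM in wt crush libraries, against 36.3, 52.6 and 66.04 RPM in wt naive libraries (lowest, median, highest). The groups overlapped only through wt crush replicate 210 at 37.3 RPM, since the other 5 wt crush libraries lay between 19.6 and 22.5 RPM. It averaged 23.5 ± 6.87 RPM in wt crush (SD, n = 6) and 50.9 ± 10.3 RPM in wt naive libraries (SD, n = 8) and fell (log2 change -1.11, SE 0.15, adjusted p = 0.00427). Its call was kept in 28 of 30 alternatives.

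Tgm2, the gene of transglutaminase 2, which cross-links proteins (chromosome 3, 154597165 to 154627257, Rnor_6.0), stood at 12.7, 14.1 and 17.9 RPM in wt crush libraries, against 18.1, 24.3 and 26.2 RPM in wt naive libraries (lowest, median, highest). Wt crush replicate 203 at 17.9 RPM and wt naive replicate 199 at 18.1 RPM were next to each other, and the groups did not overlap. Tgm2 averaged 14.4 ± 1.85 RPM in wt crush (SD, n = 6) and 23.6 ± 2.68 RPM in wt naive libraries (SD, n = 8) and fell (log2 change -0.69, SE 0.09, adjusted p = 0.00416). Parvb, which encodes beta-parvin at focal adhesions (chromosome 7, 125189827 to 125275977, Rnor_6.0), stood at 52.1, 55.3 and 61.6 RPM in wt crush libraries, against 68.3, 81.99 and 96.3 RPM in wt naive libraries and fell (log2 change -0.55, SE 0.07, adjusted p = 0.00427), again without overlap. Klhdc7a, a kelch domain gene (chromosome 5, 158433394 to 158440185, Rnor_6.0), stood at 8.64, 10.5 and 11.7 RPM in wt crush libraries, against 12.6, 17.4 and 18.8 RPM in wt naive libraries. Its groups did not overlap, and it fell (log2 change -0.67, SE 0.09, adjusted p = 0.00427). Tgm2 kept its call in 29, Parvb in 28 and Klhdc7a in 27 of 30 alternatives.

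Mmp14, a membrane-bound matrix metalloprotease, stood at 5.71, 5.997 and 7.23 RPM in wt crush libraries, against 7.58, 9.37 and 13.5 RPM in wt naive libraries (lowest, median, highest) and fell without overlap (log2 change -0.59, SE 0.11, adjusted p = 0.0380). Kif21b, a kinesin motor gene, stood at 79.8, 92.2 and 111 RPM in wt crush libraries, against 117, 165 and 195 RPM in wt naive libraries and fell without overlap (log2 change -0.72, SE 0.12, adjusted p = 0.0153). Wt naive replicates 197, 199, 201 and 202 were its 4 highest libraries, at 170.0 to 195 RPM. C1r, a protease of the complement cascade, stood at 5.98, 6.26 and 6.88 RPM in wt crush libraries, against 6.59, 11.04 and 18.7 RPM in wt naive libraries. Its wt naive libraries spread widely, from replicate 196 at 6.59 RPM, which lay within the wt crush range, to replicate 197 at 18.7 RPM, and it fell (log2 change -0.79, SE 0.16, adjusted p = 0.0438). Angpt2, the angiopoietin that acts on the endothelial receptor TIE2, fell as well (log2 change -0.60, SE 0.11, adjusted p = 0.0380). Without the 3 naive libraries low in spiny neuron markers these 4 calls were lost, with log2 changes of -0.43 for Mmp14, -0.58 for Kif21b, -0.58 for C1r and -0.50 for Angpt2.

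**Figure D2:**
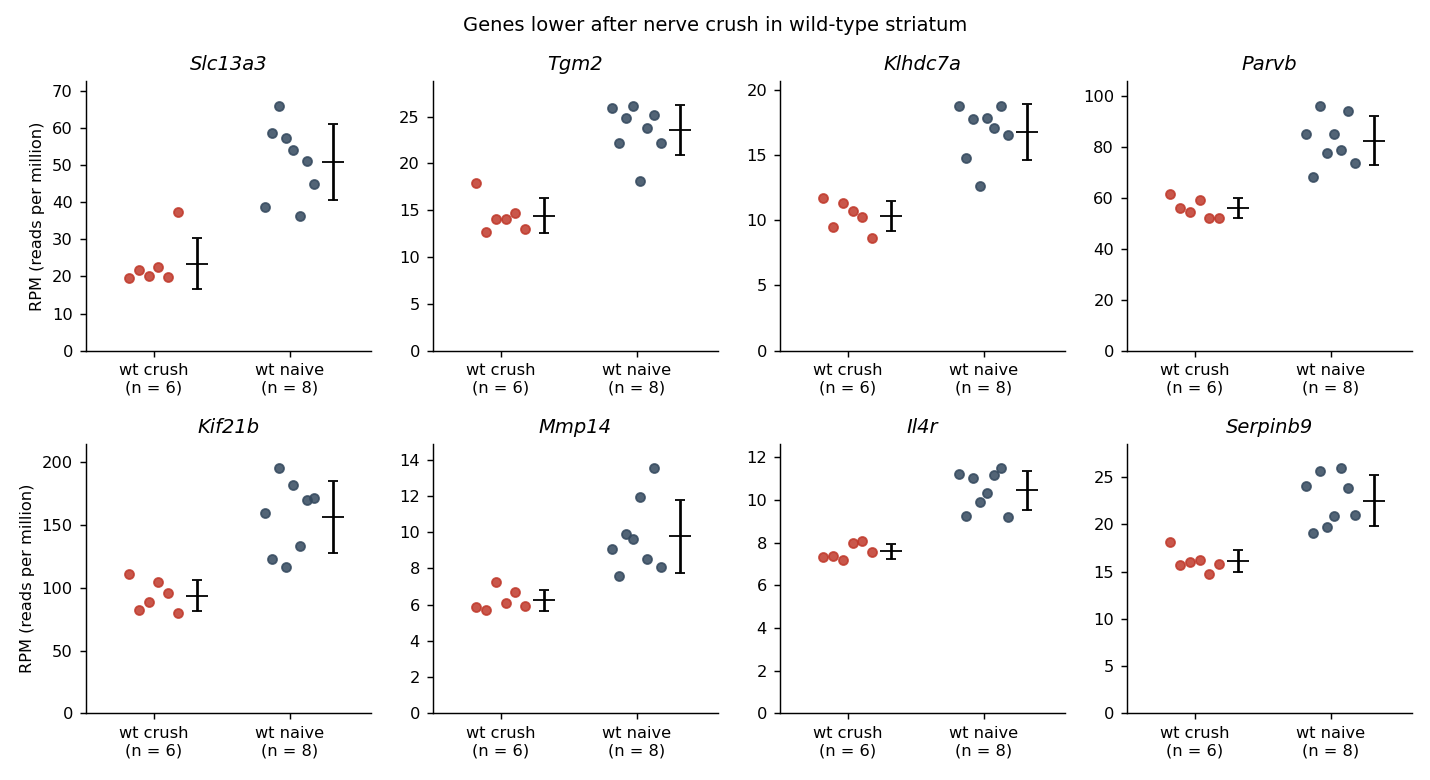
Level in RPM (assigned reads per 1000000, linear axis from 0) of 8 genes that fell in wt crush rats, by library (points) with the group mean and SD (bars), for wt crush (n = 6) and wt naive (n = 8). Slc13a3 is the gene whose groups overlap here, through 1 wt crush library at 37.3 RPM.

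Other genes that fell had roles in metabolism, immune signalling and cell shape. Sult1a1, a phenol sulfotransferase, fell by 0.67 on the log2 scale, Ptpn14, a tyrosine phosphatase, by 0.53, Rhobtb1 by 0.52, and Slc6a13, a GABA transporter of the meninges, by 0.52. Plekhd1 fell by 0.51, Frmpd1 by 0.46, and Serpinb9, whose human counterpart inhibits granzyme B, by 0.46. Serpinb9 stood at 14.7 to 18.2 RPM in wt crush libraries, against 19.05 to 25.9 RPM in wt naive libraries. The remaining decreases lie outside the rule for named genes, apart from Gjb6, and were chosen after their values were seen. Il4r, the receptor chain for interleukin 4, stood at 7.20 to 8.09 RPM in wt crush libraries, against 9.21 to 11.5 RPM in wt naive libraries and fell (log2 change -0.43, SE 0.06, adjusted p = 0.00586), without overlap. Idh2, the mitochondrial isocitrate dehydrogenase, fell by 0.33, Prodh1, a proline dehydrogenase gene, by 0.31, and Adhfe1, a mitochondrial transhydrogenase, by 0.40. Lrp8, the reelin receptor ApoER2, fell by 0.29, and Nelfb, a subunit of the negative elongation factor, by 0.23. Rin3, Ggta1, Tec, Plcd3, Farp1, Htra3, Zfp423, Arap1, Zfp703 and LOC102547113 fell by 0.29 to 0.44. Of the genes in this paragraph, only Slc6a13 kept its call without the 3 naive libraries low in spiny neuron markers.

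LOC108351058, LOC108349682 and LOC108351377 had nearly the same levels in every library and each fell by 0.32 on the log2 scale. LOC108349682 is annotated as a ribosomal protein gene of the large subunit, a copy of Rpl35a, and the 3 may share reads with it. Rpl35a itself stood at 4.04 to 4.88 RPM in wt crush libraries, against 5.07 to 6.53 RPM in wt naive libraries (log2 change -0.31, adjusted p = 0.0607) and did not pass. They are therefore uncertain as separate genes, and their calls were lost without the 3 naive libraries low in spiny neuron markers.

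Cell type markers were examined in the same libraries, because a piece of striatum can hold neighbouring tissue. In bulk tissue, fewer cells of a type and less RNA per cell cannot be told apart. The log2 change was positive for each of the 14 spiny projection neuron markers (median 0.40 beside -0.03 over all genes), and none passed. Over all genes tested, 6900 of 16333 were positive. Their mean log2 level was 8.97, 9.09 and 9.15 in wt crush libraries (lowest, median, highest), against 8.19, 8.78 and 9.12 in wt naive libraries. The wt crush libraries lay within a narrow range at the upper end, and the wt naive libraries spread from within that range to well below it. The level averaged 9.07 ± 0.08 in wt crush (SD, n = 6) and 8.71 ± 0.37 in wt naive libraries (SD, n = 8), a difference of 0.36 (two-sided exact permutation test over libraries, p = 0.0306). Without the 3 naive libraries high in Slc17a7 the difference was 0.21 (exact permutation p = 0.199), and leaving out 1 library gave exact permutation p values of 0.0140 to 0.0622. The p was above 0.05 without wt crush replicate 205, 206 or 209, or without wt naive replicate 197, 199, 200, 201 or 202.

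Lowest in p among them were Rarb, a retinoic acid receptor gene (0.44, adjusted p = 0.109), and Arpp21, which encodes a cAMP-regulated phosphoprotein (0.41, adjusted p = 0.116). For the direct pathway 8 of 8 markers were positive with a median of 0.31, among them the D1 dopamine receptor gene Drd1 (0.57, adjusted p = 0.101), at 296 to 379 RPM in wt crush libraries, against 144 to 357 RPM in wt naive libraries. For the indirect pathway 5 of 5 were positive with a median of 0.28, among them the D2 receptor gene Drd2 (0.33, adjusted p = 0.173). No member of either list passed. With the 3 naive libraries low in these markers left out, the medians were 0.12 for all spiny neurons, 0.12 for the direct and 0.05 for the indirect pathway.

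Markers of glutamatergic neurons outside the striatum had negative log2 changes and did not pass. The 3 cortical markers tested were negative, led by Slc17a7 at 2.11, 2.87 and 5.48 RPM in wt crush libraries, against 3.32, 7.21 and 55.2 RPM in wt naive libraries (log2 change -1.71, adjusted p = 0.101). The whole cortical list summed to 23.3 to 37.9 RPM in wt crush and 29.96 to 113 RPM in wt naive libraries, and of its 6 members under the minimum level Neurod1 was at 0 in every library. The 4 thalamic markers tested were negative too, with a median of -0.30, and that list summed to 34.6 to 41.04 RPM in wt crush and 37.8 to 59.8 RPM in wt naive libraries. Leaving out the 3 naive libraries low in spiny neuron markers gave medians of -0.25 for the cortical and -0.09 for the thalamic markers. The part of tissue composition in the changes above was not tested beyond the covariate and left-out libraries. When the spiny neuron level entered the fit as a covariate, 7 genes were called, among them Ciart, Bhlhe41, Tgm2, Parvb and Slc13a3. The median of 0.01 over the 14 markers in that fit carries no information, because the covariate is the mean of the same markers.

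Other cell types that the dissection could hold gave small counts. The red blood cell genes tested were 4, all with a positive log2 change and none called, and the list summed to 22.4 to 65.6 RPM in wt crush and 9.57 to 70.1 RPM in wt naive libraries. Their direction was not stable, since Hba2 had a log2 change of 0.09 and one of -0.53 without the 3 naive libraries low in spiny neuron markers. Of the choroid plexus genes 3 were tested and 0 called, with the transthyretin gene Ttr at 4.25 to 13.6 RPM in wt crush libraries, against 2.65 to 50.5 RPM in wt naive libraries (log2 change -0.87, adjusted p = 0.267). The interneuron markers had 10 tested, 4 positive, 6 negative and 0 called. Nos1 leaned upward, at 62.2 to 81.4 RPM in wt crush libraries, against 50.6 to 75.4 RPM in wt naive libraries. Negative were Pvalb, which encodes parvalbumin (log2 change -0.44, limma adjusted p = 0.146), and Chat, the acetylcholine-synthesizing enzyme (log2 change -0.01, limma adjusted p = 0.955).

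**Figure D3:**
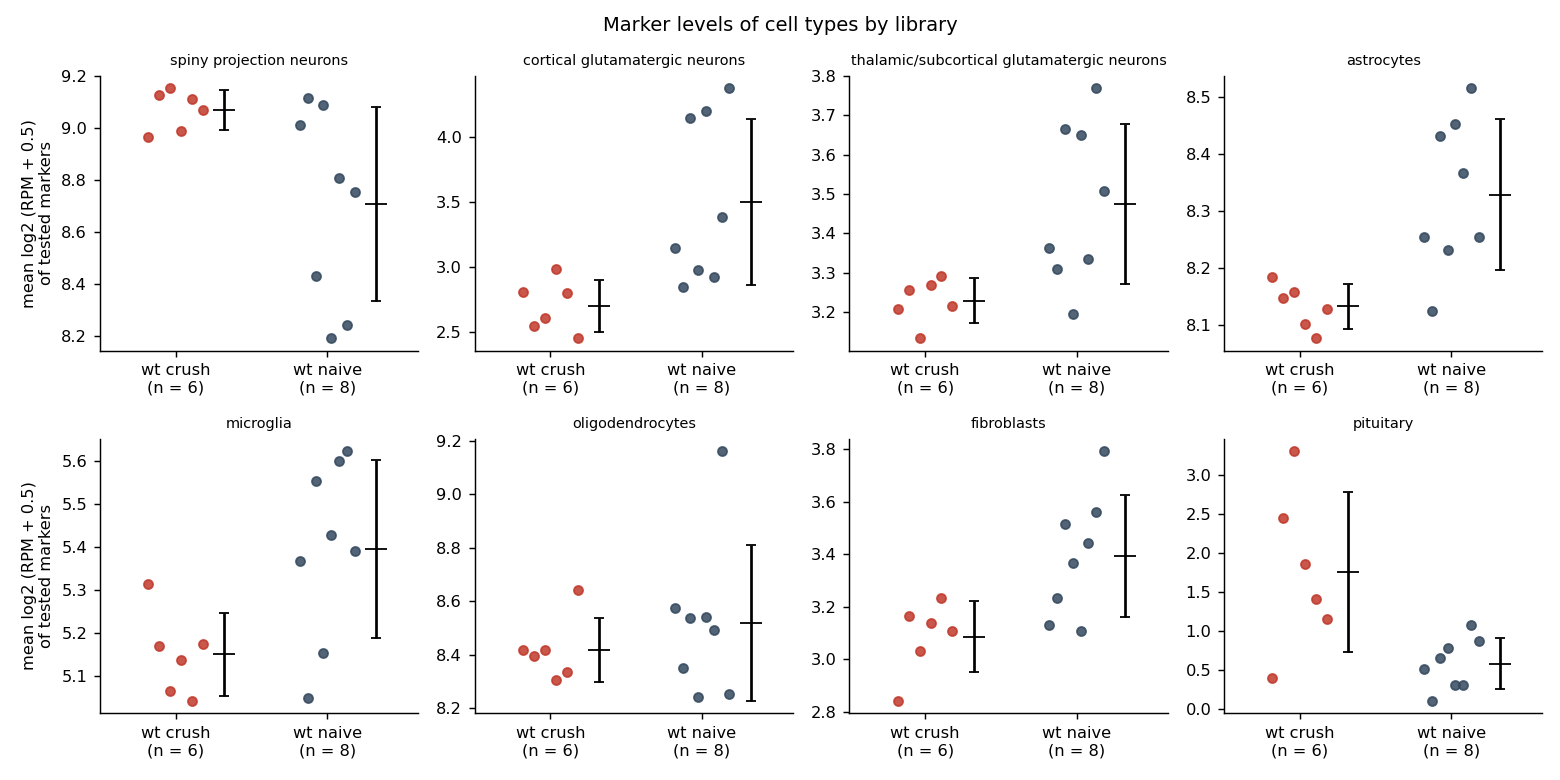
Mean log2 (RPM + 0.5) of the tested markers of 8 cell types by library (points), with the group mean and SD (bars), for wt crush (n = 6) and wt naive (n = 8). The axes do not start at 0. The spiny neuron level of 3 wt naive libraries lies under 8.5, and wt naive replicates 200 and 202, at 8.81 and 8.75, also lie below every wt crush library. The pituitary level of 5 wt crush libraries lies above every wt naive library.

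Glial and vascular markers had mostly negative log2 changes, with few calls. Over all genes tested, 9433 of 16333 had a negative log2 change, the background for the sign counts here and below. Members of a list are not independent of one another. All 17 astrocyte markers had a negative log2 change (median -0.19), and Gjb6, which encodes the astrocyte gap junction protein connexin 30, stood at 30.9, 34.6 and 39.4 RPM in wt crush libraries, against 37.95, 44.1 and 48.2 RPM in wt naive libraries and fell (log2 change -0.32, SE 0.06, adjusted p = 0.0380). The other 16 did not pass, and the call of Gjb6 was lost without the 3 naive libraries low in spiny neuron markers. Of the microglial markers 15 of 16 were negative (median -0.23), with 0 called; Tyrobp, a microglial signalling adaptor, stood at 6.20 to 10.2 RPM in wt crush libraries, against 10.4 to 17.2 RPM in wt naive libraries (log2 change -0.53, adjusted p = 0.0601) and its groups did not overlap. Of the oligodendrocyte markers 15 of 16 were negative (median -0.09), and of the precursor markers 7 of 7 (median -0.18), with 0 called in both. All 15 endothelial markers (median -0.14) and all 8 mural cell markers tested (median -0.15) were negative, again with 0 called.

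All 7 fibroblast markers were negative with a median of -0.31. Slc6a13 stood at 4.68, 5.02 and 5.47 RPM in wt crush libraries, against 5.84, 7.41 and 9.44 RPM in wt naive libraries, without overlap, and fell (log2 change -0.52, SE 0.09, adjusted p = 0.0285). This fibroblast list summed to 62.1 to 87.9 RPM in wt crush and 75.7 to 145 RPM in wt naive libraries. Without the 3 naive libraries low in spiny neuron markers the medians were -0.30 for fibroblasts, -0.10 for astrocytes, -0.15 for microglia, -0.19 for endothelium, -0.05 for oligodendrocyte precursors and 0.05 for oligodendrocytes.

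Immune and reactive gene lists had negative medians. All 22 interferon-induced genes tested were negative (median -0.28, 0 called), led by Mx1, an antiviral GTPase, at 0.731 to 1.56 RPM in wt crush libraries, against 1.64 to 4.89 RPM in wt naive libraries (log2 change -0.86, adjusted p = 0.0589). Of 16 genes of antigen presentation 15 were negative (median -0.28, 0 called), among them Tap2, a peptide transporter subunit (-0.32, adjusted p = 0.0701), and the class II gene RT1-Bb (-0.93, adjusted p = 0.0910). The 10 reactive astrocyte genes had a median of -0.32, with C3, the central complement component, at 14.04 to 32.5 RPM in wt crush libraries, against 21.95 to 83.5 RPM in wt naive libraries (log2 change -0.84, adjusted p = 0.1002). The 9 activated microglia genes tested had a median of -0.15, and 0 genes were called in either list. The 8 cytokine and chemokine genes tested had a median of -0.23, with 2 positive, 6 negative and no call. The sum of that list went the other way, at 880, 947 and 995 RPM in wt crush libraries (lowest, median, highest). In wt naive libraries it was 733, 851 and 1012 RPM. No immune or reactive gene of these lists was called higher. When the 3 naive libraries low in spiny neuron markers were left out, the medians were -0.21 for interferon-induced genes, -0.18 for antigen presentation, -0.23 for reactive astrocyte genes, -0.07 for activated microglia genes and -0.16 for cytokines. Under the spiny neuron covariate they were -0.10 for interferon-induced genes, -0.14 for antigen presentation, -0.17 for reactive astrocyte genes, -0.01 for activated microglia genes and -0.11 for cytokines.

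Of 43 genes of matrix and matrix proteases, 2 fell, Tgm2 and Mmp14, 0 rose and 41 did not pass (median -0.19). Col4a1, a basement membrane collagen, came next (-0.39, adjusted p = 0.0568). Of 24 focal adhesion and integrin genes Parvb fell and 23 did not pass (median -0.15), and the laminin receptor subunit gene Itga7 had a log2 change of -0.40, adjusted p = 0.0589. Col4a1 and Itga7 were picked with their values in view. The matrix median was -0.10 without the 3 naive libraries low in spiny neuron markers and -0.06 under the spiny neuron covariate, and the focal adhesion median was -0.09 and -0.06 in the same settings. All 83 cytosolic ribosomal protein genes tested were negative, with a median of -0.17 and a range of -0.35 to -0.01, and none passed. With median-of-ratios rescaling their median was -0.14.

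Some lists of neuronal signalling genes had positive medians, with at most 1 call each. Others did not stand out, since the 75 potassium channel genes had a median of -0.01 (35 positive, 40 negative). The 20 neuropeptide and granin genes had one of 0.01 (11 positive, 9 negative), with 0 called in both. Of 21 glutamate receptor genes Gria4 rose and 20 did not pass (median 0.17). Of 26 genes of cAMP and DARPP-32 signalling Pde4d rose and 25 did not pass (median 0.18). The 31 genes of calcium channels, pumps and calmodulin kinases had a median of 0.21 with 0 called, among them Cacng3, an AMPA receptor auxiliary subunit (0.41, adjusted p = 0.0882). The 21 immediate early genes had a median of 0.21 with 0 called, with the activity-induced Egr1 at 71.6 to 99.3 RPM in wt crush libraries, against 40.5 to 93.5 RPM in wt naive libraries (log2 change 0.52, adjusted p = 0.130). Under the spiny neuron covariate the medians were 0.06 for glutamate receptors, 0.02 for cAMP signalling, 0.01 for calcium genes and -0.07 for immediate early genes.

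Of 51 kinesin, dynein and dynactin genes Kif21b fell and 50 did not pass (median -0.02). Among 18 glucocorticoid-responsive genes Sult1a1 and Gjb6 fell and 16 did not pass (median 0.00), while Per1, also on that list, had a log2 change of 0.42. The list of nerve injury and regeneration genes had 17 tested and 0 called (median -0.10), with the neurotrophin receptor gene Ngfr at 3.33 to 8.40 RPM in wt crush libraries, against 4.28 to 37.1 RPM in wt naive libraries (log2 change -1.37, adjusted p = 0.104) and the cytokine signalling inhibitor Socs3 at -0.27, adjusted p = 0.128. The torsins and their cofactors had 7 tested and 0 called, with log2 changes of -0.27 for Tor4a, -0.26 for Tor3a and -0.09 for the cofactor gene Tor1aip1. The 23 genes of inherited dystonia had a median of 0.05 and 0 called, among them Ano3 (0.54, adjusted p = 0.124) and Prrt2 (0.17, adjusted p = 0.111). Of 13 transcripts of the mitochondrial genome none was called (median -0.03), and mitochondrial reads made up 10.9% to 15.9% of reads in wt crush and 11.5% to 15.2% in wt naive libraries. Of the 58 lists, 11 held a call and 47 held none.

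**Figure D4:**
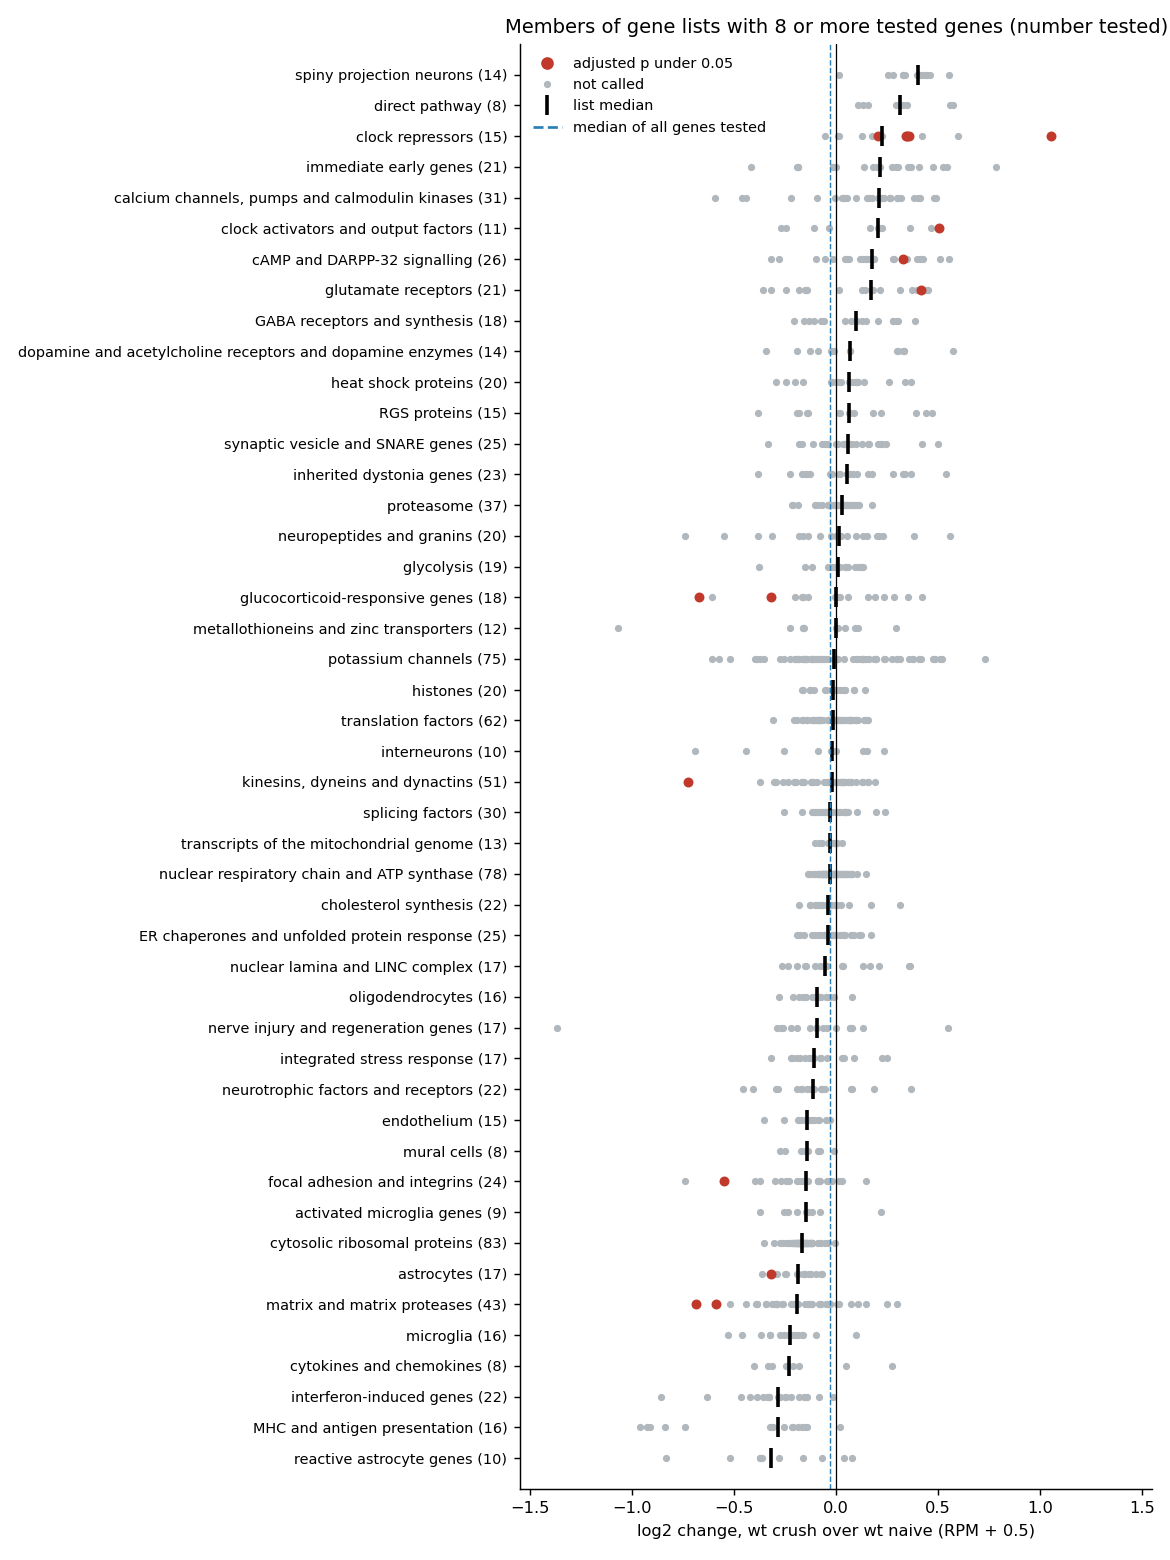
Log2 change of wt crush over wt naive (RPM + 0.5) for each tested member (points) of the lists with 8 or more tested genes, ordered by list median (black bars). Red points passed limma's test and grey points did not, and the dashed line is the median of all genes tested at -0.03. Both clock lists hold red points to the right of 0, the matrix, adhesion and astrocyte lists hold red points to the left, and most lists hold none.

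Gh1, which encodes growth hormone, a pituitary product (chromosome 10, 94486204 to 94488181, Rnor_6.0), was called higher in wt crush libraries, and the pituitary genes Prl and Pomc also had their highest levels there. Gh1 stood at 0.349, 32.5, 10.97, 12.4, 5.71 and 4.30 RPM in wt crush replicates 203, 205, 206, 207, 209 and 210, against at most 0.178 RPM in 7 of the 8 wt naive libraries and 2.04 RPM in wt naive replicate 202. Its log2 change was 3.38 (SE 0.61, limma adjusted p = 0.0376), a value that depends on the pseudocount because 3 wt naive libraries were at 0. Without the 3 naive libraries low in spiny neuron markers its adjusted p was 0.126. In TG rats Gh1 stood at 0.596 to 41.9 RPM in crush and 0.0260 to 17.3 RPM in naive libraries, so high levels were not confined to crush. Of the 9 pituitary genes listed 4 were tested, Gh1, Pomc, Cga and Lhb, and Gh1 was the 1 called. Of these 4, 3 had a positive and 1 a negative log2 change. The prolactin gene Prl, under the minimum level, stood at 0.0268 to 6.45 RPM in wt crush libraries, against 0 to 0.345 RPM in wt naive libraries. Pomc, the precursor of corticotropin, stood at 1.84 to 166 RPM in wt crush libraries, against 1.47 to 2.52 RPM in wt naive libraries, with wt crush replicate 206 highest. The list summed to 4.10 to 184 RPM in wt crush and 3.01 to 8.07 RPM in wt naive libraries. Whether these reads came from striatal cells or from other tissue was not tested.

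In TG rats the same contrast gave 568 of 16333 genes called (3.48%) in a fit of all 28 libraries, 6 TG crush against 8 TG naive. Of the 53 genes called in wt rats 21 were also called in TG rats, all 21 in the same direction, which is 39.6% of the wt calls and 3.70% of the TG calls. In sign, 50 of the 53 were alike, and the exceptions were Barx2, LOC500476 and Angpt2. The share of like signs over all genes tested is not given here, so this count has no background beside it. The group means compared in wt and TG rats come from different libraries, but the TG fit took its variances from all 28, the wt libraries included. The 53 wt calls come from the fit of the wt libraries alone. In the fit of all 28 the wt contrast gave 29 calls. A call in one genotype alone does not show that the genotypes differ, so the difference itself was tested.

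By the interaction of genotype and crush, 1 of 16333 genes (0.00612%) was called, Nr1d2. Its levels were 111, 118 and 131 RPM in TG crush libraries, against 58.9, 66.9 and 72.02 RPM in TG naive libraries (lowest, median, highest). The TG naive libraries all lay below the wt naive libraries, which began at 75.4 RPM, while the TG crush and wt crush libraries overlapped. The log2 change was 0.83 (SE 0.05, adjusted p = 1.31e-11) in TG rats, and the change in TG minus that in wt rats was 0.48 (SE 0.07, adjusted p = 0.00719). Without the libraries high in Slc17a7 the difference was 0.46 and did not pass (adjusted p = 0.235), and 0 genes passed; limma then gave 606 genes with an unadjusted p under 0.05, against 1204 with all libraries.

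The other 5 clock genes called in wt rats had larger log2 changes in TG rats than in wt rats, without a called difference when all libraries were fitted. Ciart had a log2 change of 1.87 (SE 0.15, adjusted p = 4.24e-09) in TG rats and a difference of 0.82 (SE 0.22, adjusted p = 0.362). For Per3 the TG value was 0.84 (SE 0.08, adjusted p = 5.28e-08) and the difference 0.49 (SE 0.11, adjusted p = 0.315), a difference that passed without TG naive replicate 187. The values were, for Dbp, 0.98 (SE 0.09, adjusted p = 3.37e-08) and 0.47 (SE 0.13, adjusted p = 0.362), and for Bhlhe41, 0.56 (SE 0.06, adjusted p = 1.25e-07) and 0.22 (SE 0.08, adjusted p = 0.584). Cipc had 0.23 (SE 0.05, adjusted p = 0.00644) in TG rats and a difference of 0.02 (SE 0.07, adjusted p = 0.940). Tgm2 stood at 7.99 to 12.4 RPM in TG crush and 22.6 to 34.05 RPM in TG naive libraries, a log2 change of -1.42 (SE 0.10, adjusted p = 1.42e-10), with a difference from wt of -0.73 (SE 0.14, adjusted p = 0.134). Its difference passed without TG crush replicate 214 or 223. Mmp14 had -1.24 (SE 0.11, adjusted p = 3.37e-08) in TG rats and a difference of -0.65 (SE 0.16, adjusted p = 0.335).

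For Barx2 the TG change was -0.02 (SE 0.20, adjusted p = 0.964), and the difference from wt did not pass, at -1.14 (SE 0.28, adjusted p = 0.335). Over the 14 spiny neuron markers the median in TG rats was 0.01, beside 0.40 in wt rats, and over the 17 astrocyte markers it was -0.19, beside -0.19 in wt rats. The clock repressors had a median of 0.40 in TG rats, beside 0.22 in wt rats. The differences of these medians were not tested.

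**Figure D5:**
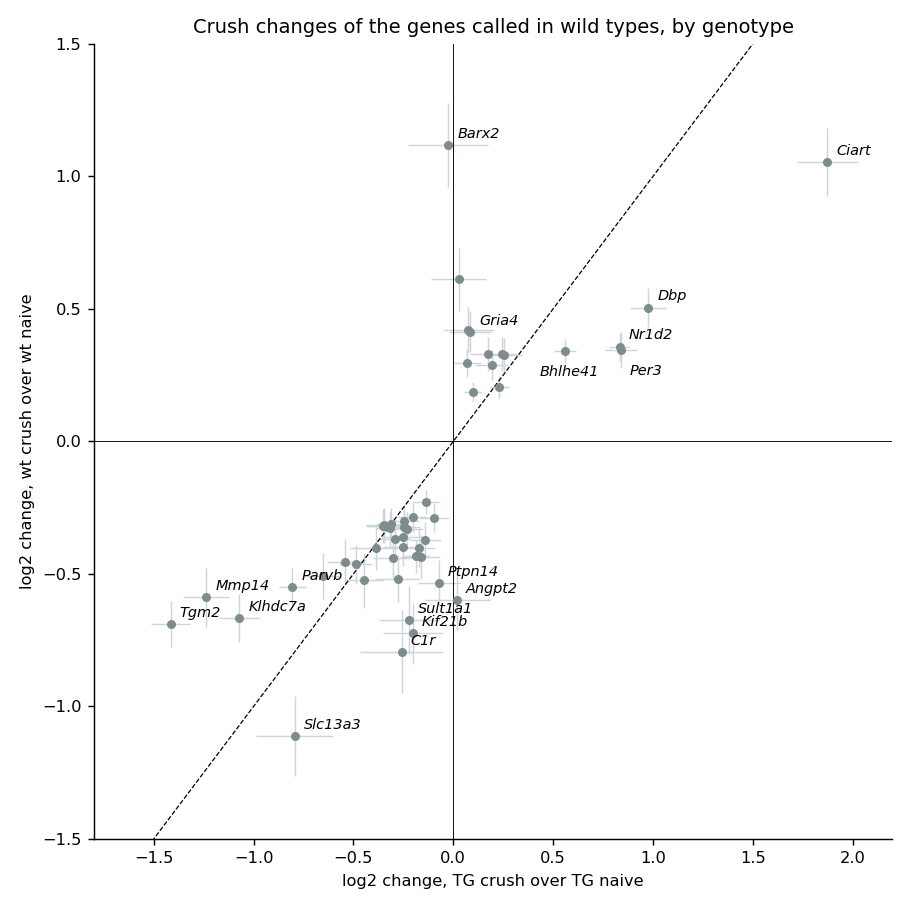
Log2 change with crush in TG rats (horizontal) and in wt rats (vertical) for the genes called in wt rats, with their standard errors (lines), each genotype 6 crush against 8 naive libraries, and a dashed line of equal change. Gh1 and LOC500476 lie outside the axes. The clock genes Ciart, Dbp, Nr1d2, Per3 and Bhlhe41 all lie to the right of the dashed line, and Nr1d2 is the gene whose difference passed.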

How the data were processed

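Messenger RNA of frozen striatum went into stranded libraries, read in 2 runs from a single end over 75 nt, per the labels' protocols. The sources used here do not assign libraries to runs, so an effect of the run was not tested. Per the submitters' processing notes, the tools were STAR 2.6.1a, featureCounts from Subread 1.6.3 and DESeq2 1.22.2, and the build was Rnor_6.0. No source used here states whether counting used the strand, and overlapping genes on opposite strands are therefore uncertain. The authors deposited RPKM values for 39538 genes, written with decimal commas, per the file headers. Because of those commas the unit of the deposited columns was recorded as other. Each RPKM was multiplied by the deposited length in kilobases, which equals the span of the gene, to give RPM. In all libraries 100% of values were whole multiples of 1 read within a tolerance of 0.02, so the whole reads behind them were computed, and they served for read totals and the limma-voom alternative.

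Log2 (RPM + 0.5) of the 14 wt libraries was fitted with limma 3.58.1 in R 4.3.3, with variances that follow the mean, for 16333 genes with at least 1 RPM in 6 or more libraries. Adjusted p values are Benjamini-Hochberg over those genes, and a gene was called under 0.05. The same genes in all 28 libraries gave the TG comparison and the interaction. A log2 (RPM + 0.5) change understates that of low genes. The spiny neuron level was compared by an exact permutation test (scipy 1.17.1), and figures used matplotlib 3.10.9. The fit was also run on simulated counts. These were drawn without the shared variation among libraries seen here, so that run does not bear on such variation. No 2 replicates of a group agreed within sampling noise (chi-square per degree of freedom 4.43 to 76.1).

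Members, gene lists and tests were chosen with earlier results of these data known. Of 837 list entries by symbol, 10 were not matched. A clock gene under the minimum level is not reported here. Genes were named by a rule: up to 15 called higher and 15 called lower by size of change with a mean of at least 2 RPM and a true symbol, up to 4 called members of lowest p per list, the 2 members of lowest p of a list with no call as values, and Tor1a. Genes outside it are said to be so, or are list members, list sums or values under the minimum level. Alternatives were other pseudocounts, filters, scalings, weights, models, a covariate, a fold of 1.2 and leaving out libraries. Those chosen after seeing the data were leaving out the 3 wt naive libraries with a spiny neuron level under 8.5, and Slc17a7 as a covariate. Promoters are those of RefSeq, build GRCr8.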

Additional observations from a re-analysis of the deposited data

Results flagged for a closer look

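A library far from the others of its group was found in 6 of 140 groups of values examined, where chance gives about 1 in 20. Gh1 stood at 2.04 RPM in wt naive replicate 202, and at 0 to 0.178 RPM in the other 7 wt naive libraries. Slc13a3 stood at 37.3 RPM in wt crush replicate 210, and at 19.6 to 22.5 RPM in the other 5 wt crush libraries. The oligodendrocyte marker level, a mean log2 (RPM + 0.5), was 8.64 in wt crush replicate 210, with 8.30 to 8.42 in the other wt crush libraries. It was 9.16 in wt naive replicate 201, with 8.24 to 8.58 in the other wt naive libraries. The endothelial level was 5.51 in wt crush replicate 203, with 5.21 to 5.31 in the others. The ependymal level was 3.75 in wt crush replicate 206, with 2.01 to 2.48 in the others. Slc13a3 and the oligodendrocyte level were thus both highest in wt crush replicate 210, and their relation was not tested.

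A difference between the genotypes was found for Nr1d2, the gene of REV-ERB beta. Its log2 change with crush was larger in TG than in wt rats by 0.48 (limma interaction, adjusted p = 0.00719), with all TG crush libraries above all TG naive libraries and all wt crush libraries above all wt naive libraries.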

How the results depend on the processing

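No paired analysis was possible because the wt crush and wt naive libraries share no replicate number. The 53 calls (18 higher, 35 lower) became 13 without a filter, 29 in the fit of all 28 libraries, 1338 with array weights, 7 with the spiny neuron covariate, 18 without the libraries high in Slc17a7, 10 without the 3 naive libraries low in spiny neuron markers, 5 with Slc17a7 as a covariate and 0 against a fold of 1.2, where 166 genes had an unadjusted p under 0.05. Leaving out 1 library gave 10 to 1914. Quantile normalization gave 20 higher and 25 lower, or 44.4% higher beside 34.0% in the main result, and the split also moved by over 10 points in settings with few calls. The 16 list members called became 7 without a filter, 180 with array weights, 4 with the spiny neuron covariate, 9 without the libraries high in Slc17a7, 0 against a fold of 1.2, 6 without the 3 naive libraries and 3 with Slc17a7 as a covariate, and 6 to 238 leaving out 1 library. The 6 clock genes called became 14 with array weights, 2 with the spiny neuron covariate, 0 against a fold of 1.2, 3 without the 3 naive libraries and 1 with Slc17a7 as a covariate, and 4 to 16 leaving out 1 library. The interaction gave 0 calls without the libraries high in Slc17a7 and 1 to 5 leaving out 1 library. The spiny neuron difference of 0.36 was 0.21 without the libraries high in Slc17a7 and 0.29 to 0.42 leaving out 1 library. Single genes changed sign without passing in any of these settings. LOC689064 and Hba2 (red blood cells), positive in the main result, were -0.23 and -0.28 with array weights, -0.63 and -0.75 with the spiny neuron covariate, -0.19 and -0.21 without the libraries high in Slc17a7, -0.44 and -0.53 without the 3 naive libraries, -0.46 and -0.52 with Slc17a7 as a covariate, and -0.18 to 0.21 and -0.17 to 0.23 leaving out 1 library. Drd2 was -0.0397 with the spiny neuron covariate, COX3 0.0417 with quantile normalization, Miat 0.12 with Slc17a7 as a covariate, and Tor1a 0.000924 with quantile normalization and 0.000638 with Slc17a7 as a covariate. In all, 3425 of 4349 values kept their side of the threshold and their direction, 781 no longer passed, 122 newly passed and 21 changed sign. The covariates and left-out libraries also remove degrees of freedom, and the cause of these shifts was not tested further.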
